A study of Mus musculus with 12 samples.

Results

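Long noncoding RNAs (lncRNAs) are transcripts that code for no protein. Their promoters were followed here by chromatin accessibility in thymic invariant natural killer T (iNKT) cells. A region was counted as a lncRNA promoter where its midpoint lay within 1 kb of an annotated transcription start of a lincRNA or antisense gene of GENCODE vM21, more than 1 kb from every protein-coding start and on an autosome. By this rule 1245 of the 63309 accessible regions in the table were lncRNA promoters. They lay at the starts of 974 genes, of which 644 carried the lincRNA label and 330 the antisense label. The first is meant for genes between protein-coding genes and the second for genes that overlap one on the other strand. The label does not fix the position, since lincRNA starts such as Gm9961 lay in an intron of a protein-coding gene.

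The study compared untreated C57BL/6 mice with mice lacking Hivep3, a large zinc-finger protein, by ATAC-seq, in which a transposase cuts and tags open chromatin. There were 2 libraries for each of iNKT1, iNKT2 and iNKT17 cells of each genotype, all from thymi of mice 8 to 9 weeks old. C57BL/6 mice were wildtype and Hivep3-/- mice carried the deletion in every cell of the body, so an effect within a subset and one from other cells cannot be told apart. Cells of each subset were sorted from pooled thymi, transposed together and sorted again on ICOS and CD138 only, because the fluorescence on CD122 and Izumo1r was lost, whereas the titles number single mice. What separates the 2 libraries of a group is therefore not fully stated, and the p-values measure the spread between these libraries.

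iNKT cells carry a semi-invariant T cell receptor that sees lipids on CD1d, and they leave the thymus as effector subsets: iNKT1 cells depend on T-bet and make interferon-γ, iNKT2 cells make interleukin-4, and iNKT17 cells make interleukin-17. Some lncRNAs act on neighbouring genes, others act elsewhere in the nucleus or host small RNAs, and at many loci the transcript itself has no known role and its start lies in an enhancer. An open lncRNA promoter therefore says that the site is accessible, not that the RNA is made.

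The windows below are the 300 bases around the midpoints of 2 lncRNA promoters that changed strongly between genotypes, in iNKT1 and in iNKT2 cells, and of those with the strongest preference for iNKT1, iNKT2 and iNKT17 cells in C57BL/6 mice. All are on the plus strand of mm10, and capitals mark matches to TGANTCA, the AP-1 motif, or to TNGGTCA, the ROR motif. 1700030E10Rik, a lincRNA gene on the minus strand, is shown at chr10:67717511-67717810 because its start opened most in Hivep3-/- iNKT1 cells, and its window held 2 AP-1 matches.
1700030E10Rik: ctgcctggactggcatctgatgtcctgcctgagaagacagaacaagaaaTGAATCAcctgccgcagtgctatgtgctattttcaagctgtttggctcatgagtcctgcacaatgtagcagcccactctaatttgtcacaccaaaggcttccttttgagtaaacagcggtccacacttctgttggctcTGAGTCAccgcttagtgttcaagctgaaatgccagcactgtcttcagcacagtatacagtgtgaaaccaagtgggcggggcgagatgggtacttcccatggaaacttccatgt
Gm33045, a lincRNA gene on the plus strand, is shown at chr13:110627648-110627947 because its start closed in Hivep3-/- iNKT2 cells.
Gm33045: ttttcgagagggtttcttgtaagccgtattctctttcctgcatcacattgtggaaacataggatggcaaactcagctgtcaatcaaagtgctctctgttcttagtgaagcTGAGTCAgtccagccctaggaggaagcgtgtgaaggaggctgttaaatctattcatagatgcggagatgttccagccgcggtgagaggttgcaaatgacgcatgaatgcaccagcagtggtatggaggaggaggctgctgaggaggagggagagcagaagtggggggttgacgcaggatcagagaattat
Gm27227, antisense to Myo6 and in an intron of it, is shown at chr9:80265124-80265423 as the most iNKT1-preferring start. The window held none of the motifs searched, and 1 word of 12 bases occurred 5 times in it, against 1 time for every such word in the other windows. Whether reads there are shared with other copies was not tested.
Gm27227: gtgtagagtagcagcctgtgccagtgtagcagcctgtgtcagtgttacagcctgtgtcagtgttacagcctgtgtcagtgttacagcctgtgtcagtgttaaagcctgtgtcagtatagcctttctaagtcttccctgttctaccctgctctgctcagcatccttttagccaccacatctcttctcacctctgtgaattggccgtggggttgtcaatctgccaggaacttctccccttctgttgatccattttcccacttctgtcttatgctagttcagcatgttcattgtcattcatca
Gm47957, a lincRNA gene on the minus strand, is shown at chr9:52349158-52349457 as the most iNKT2-preferring start.
Gm47957: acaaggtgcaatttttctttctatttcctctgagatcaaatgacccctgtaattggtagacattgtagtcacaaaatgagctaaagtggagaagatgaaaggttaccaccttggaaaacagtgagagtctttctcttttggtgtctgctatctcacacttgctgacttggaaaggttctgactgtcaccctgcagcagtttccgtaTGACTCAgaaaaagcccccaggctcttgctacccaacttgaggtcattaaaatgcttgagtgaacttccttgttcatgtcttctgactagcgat
Gm9961, a lincRNA gene in an intron of Cpped1 and on the strand opposite to it, is shown at chr16:11901182-11901481 as the most iNKT17-preferring start, with 1 ROR match at bases 138 to 144 of the window.
Gm9961: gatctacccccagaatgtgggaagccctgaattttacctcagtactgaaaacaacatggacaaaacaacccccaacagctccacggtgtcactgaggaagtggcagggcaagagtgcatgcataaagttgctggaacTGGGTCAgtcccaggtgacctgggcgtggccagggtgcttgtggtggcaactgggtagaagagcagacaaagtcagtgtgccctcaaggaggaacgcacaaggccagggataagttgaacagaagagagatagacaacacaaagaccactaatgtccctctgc

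Values are log2 of normalized transposase insertions per kilobase, and a group was taken as accessible where its mean on the linear scale was at least 5. The annotated names are mostly serial: 757 of the regions lay at genes named by a Gm number and 272 at genes named by a Rik clone. Of the genes, 754 had 1 region and 220 had 2 or more, up to 7 at Lncpint. Outside protein-coding gene bodies lay 887 regions, whereas 288 lay in introns and 70 in exons of protein-coding genes, of which 331 were on the strand opposite to the host gene. The nearest protein-coding start was at a median distance of 19106 bp, and 168 regions were within 2.5 kb of one.

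lncRNA promoters were less open than protein-coding promoters and more open than the remaining autosomal regions. The median of their linear means was 16.8 insertions per kilobase, against 35.8 at 19363 protein-coding promoters and 11.1 at 41557 other autosomal regions. All 6 groups were accessible at 875 of them, and 370 were accessible in 1 to 5 groups. The 5 highest means were at Gm6410, Gm26887, 1700096K18Rik, 5031425E22Rik and 4930580E04Rik, whose log2 values ranged from 7.51 to 8.20 over all 12 libraries. At none of these 5 did a subset or genotype comparison pass the call.

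As a whole the values at lncRNA promoters separated the subsets far more than the genotypes. The root mean square log2 difference between 2 libraries over the 1245 regions averaged 0.408 between replicates (0.329 to 0.513 over 6 pairs), 0.553 between genotypes of 1 subset (0.501 to 0.604 over 12 pairs) and 1.37 between subsets of 1 genotype (1.10 to 1.55 over 24 pairs). The ranges for genotypes and replicates overlapped, and those for subsets and genotypes did not. Because these are bulk libraries, fewer cells with an open site and less accessibility per cell cannot be told apart.

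The labels were checked at protein-coding promoters. In both genotypes the promoters of Tbx21, Il2rb, Klrb1c, Ccl5 and Ifng were most open in iNKT1, those of Zbtb16, Il4, Izumo1r and Ccr7 in iNKT2, and those of Sdc1, Il17a, Il23r and Ccr6 in iNKT17 cells. The promoter of Icos, fixed as an iNKT2 marker, was not highest there, with linear means of 47.3, 45.6 and 46.3 in C57BL/6 and 41.1, 42.7 and 45.3 in Hivep3-/- iNKT1, iNKT2 and iNKT17 cells. Of 12 markers of B cells, double-positive thymocytes and myeloid cells only Pax5 had a promoter region, at a linear mean of 7.56 to 24.6 insertions per kilobase, lowest in iNKT1 cells. All 21 regions over Hivep3 kept signal in Hivep3-/- libraries, with mean log2 differences of -0.21 to 0.88, and the extent of the deletion is not given in the sources used here, so accessibility did not check the genotype. The table holds no counts, so depth is unknown. The number of distinct values up to the median of a library, which tends to be smaller in a shallower library, ran from 73 in a Hivep3-/- iNKT17 library to 491 in a Hivep3-/- iNKT1 library.

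Subset preference was taken first, in C57BL/6 cells. A region was called where the adjusted p of limma was under 0.1 and the change was at least 3-fold, and 301 of the 1230 lncRNA promoters accessible in some C57BL/6 subset were called between at least 1 pair of subsets. That is 24.5%, against 29.7% of all regions, 9.0% of protein-coding promoters and 39.9% of other autosomal regions. Antisense starts were called at 27.4% and lincRNA starts at 23.0%. Between iNKT1 and iNKT2 cells 11.8% were called (139 of 1173, all regions 16.0%), between iNKT1 and iNKT17 cells 16.4% (193 of 1174, all regions 20.5%) and between iNKT2 and iNKT17 cells 13.5% (160 of 1189, all regions 16.2%). In each comparison lncRNA promoters stood between the protein-coding promoters and the other regions, as the plot of shares by class shows.

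**Figure D1:**
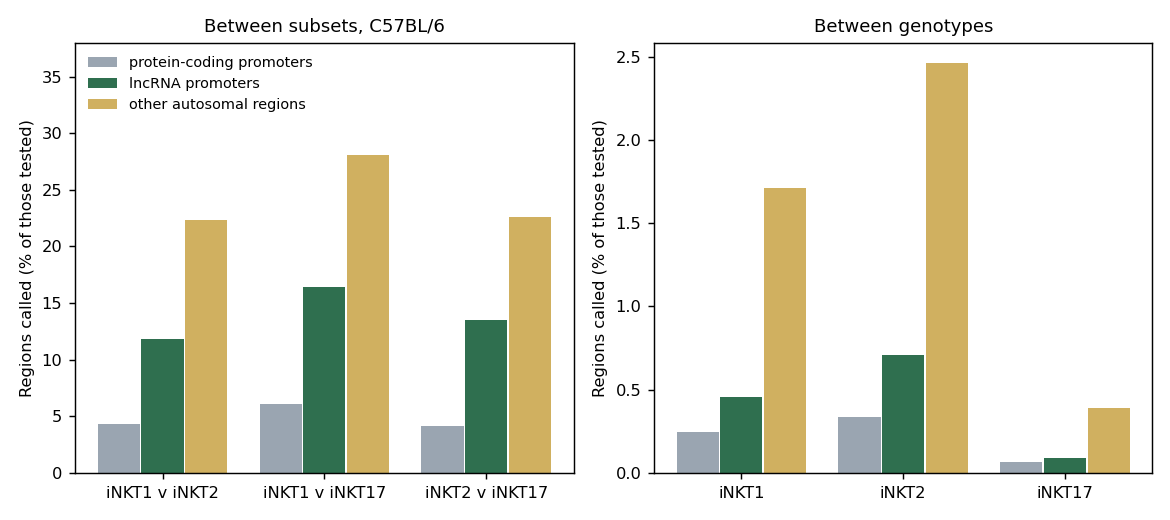
Share of tested regions called (adjusted p under 0.1 and at least 3-fold, in %) at protein-coding promoters, lncRNA promoters and other autosomal regions, between C57BL/6 subsets (left) and between genotypes in each subset (right); the vertical axes differ. lncRNA promoters stand between the other classes in all 6 comparisons, from 11.8% to 16.4% between subsets and from 0.0912% to 0.709% between genotypes.

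Preference for 1 subset meant a call in its favour against each of the other subsets. In C57BL/6 cells 35 lncRNA promoters were specific to iNKT1 (2.85%, all regions 4.66%), 39 to iNKT2 (3.17%, all regions 3.4%) and 58 to iNKT17 (4.72%, all regions 6.14%). The opposite pattern, closed in 1 subset only, was seen at 23 for iNKT1 (all regions 2.65%), 10 for iNKT2 (0.898%) and 26 for iNKT17 (2.4%). Of the 132 specific promoters, 12 of the iNKT1, 12 of the iNKT2 and 26 of the iNKT17 set lay in protein-coding gene bodies. Several regions of 1 gene were specific together at Gm14005 and Gm14009 for iNKT1, at Gm13790 and Gm42423 for iNKT2, and at BC028471, Gm11657, Gm43446 and Gm9946 for iNKT17.

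In iNKT1 cells the strongest preference was at Gm27227, the antisense start in Myo6 printed above. Its C57BL/6 values were 3.26 and 3.33 in iNKT1, -1.38 and -1.59 in iNKT2, and -4.05 and -1.65 in iNKT17 libraries, and its Hivep3-/- values were 2.92 and 2.65, -1.22 and -2.39, and -1.52 and -2.58. Both genotypes thus had it open in iNKT1 cells only, with C57BL/6 differences of 4.78 ± 0.81 (SE) to iNKT2 (adjusted p = 0.00027) and 6.14 ± 0.81 to iNKT17 (adjusted p = 2.3e-05). Gm38204 is antisense to Fcgr2b, an inhibitory receptor for antibody Fc, and lies in an intron of it. It stood at 3.06 and 2.33 in C57BL/6 iNKT1, at -0.92 and -2.10 in iNKT2 and at -3.12 and -1.65 in iNKT17 libraries. In Hivep3-/- cells both iNKT1 libraries (2.50 and 2.34) were above the other 4, which were at the lowest value of their library.

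Gm10069, an antisense gene 13.6 kb from Pzp, had the smallest standard error of the 6 leading iNKT1 starts, with 5.06 and 5.30 in C57BL/6 iNKT1, 1.96 and 1.90 in iNKT2, and 1.03 and 1.11 in iNKT17 libraries, a difference of 3.25 ± 0.25 to iNKT2 (adjusted p = 4.18e-07). Its Hivep3-/- values were 5.23 and 5.12, 0.20 and 0.55, and 0.57 and 0.82 in the same order of subsets, again with iNKT1 far above the others. C030018K13Rik, a lincRNA gene 179.0 kb from Tbc1d1, showed the same order, with 5.55 and 5.29 in C57BL/6 iNKT1 against 2.03 and 1.66 in iNKT2 and -2.41 and 0.20 in iNKT17. Gm29538 and Gm45615, the latter antisense to the small GTPase gene Rras2 and in its intron, differed from iNKT2 by 3.99 ± 0.56 and 3.20 ± 0.40. All 4 were called specific to iNKT1 in Hivep3-/- cells too.

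In iNKT2 cells Gm47957, 181.0 kb from Zc3h12c, stood first, at 4.57 and 4.74 against 0.36 and 0.91 in iNKT1 and -2.41 and 0.10 in iNKT17 cells of C57BL/6 mice. In Hivep3-/- mice it was at 3.55 and 4.01 in iNKT2, 1.99 and 1.38 in iNKT1, and -0.10 and -2.58 in iNKT17 libraries, so iNKT2 was again highest. Lyzl4os, in an intron of the lysozyme-like gene Lyzl4, was at 4.60 and 4.46 in C57BL/6 and 4.54 and 4.42 in Hivep3-/- iNKT2 libraries. The other 8 libraries lay between -0.55 and 1.66 and its iNKT2 change between genotypes was -0.05 ± 0.43 (adjusted p = 0.959). Gm16863 and the second of the 2 specific regions of Gm42423 had C57BL/6 iNKT2 values of 3.95 and 4.06, and of 2.85 and 3.06, and iNKT1 minus iNKT2 was -3.22 and -3.21 on the log2 scale. This region of Gm42423 was below the accessibility limit in every Hivep3-/- subset and was not tested between them, with iNKT2 values of 1.98 and 2.49, whereas the first region of Gm42423 was at 3.75 and 3.69 in C57BL/6 and 3.23 and 2.85 in Hivep3-/- iNKT2 libraries.

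On chromosome 18, AC102232.1 was at 4.04 and 4.43 in iNKT2 cells of C57BL/6 mice and at 3.05 and 3.46 in those of Hivep3-/- mice, against 0.36 and 0.49 in C57BL/6 iNKT1 libraries. AC157910.1, antisense to Alpk2 and in its intron, did not stand apart in Hivep3-/- iNKT2 libraries and was not tested between Hivep3-/- subsets. It was at 3.35 and 2.75 in C57BL/6 iNKT2, and the other 10 libraries, Hivep3-/- iNKT2 included, lay between -1.15 and 0.84.

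The iNKT17 set had the largest differences. Gm9961, shown above, was at 4.72 and 4.68 in C57BL/6 iNKT17 libraries, whereas iNKT1 libraries read -3.12 and -3.79, both the lowest value of their library, and iNKT2 libraries read -4.31 and -3.79. In Hivep3-/- mice iNKT17 libraries read 4.53 and 4.37 and all of the other 4 lay below 0. The region was open in iNKT17 cells of both genotypes and in no other subset, and in Hivep3-/- cells iNKT1 minus iNKT17 was -6.84 ± 0.84 (SE, adjusted p = 1.38e-05) and iNKT2 minus iNKT17 was -6.50 ± 0.84 (adjusted p = 3.01e-05). Gm36377, 17.5 kb from Ice1, was higher still, at 5.70 and 5.79 in C57BL/6 and 5.75 and 5.75 in Hivep3-/- iNKT17 libraries, with the other 8 libraries between -3.02 and 0.20.

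Gm20139 is a lincRNA gene 126.0 kb from Tnfaip3, which encodes the NF-κB feedback inhibitor A20. Its iNKT17 values were 5.03 and 5.27 in C57BL/6 and 5.10 and 4.66 in Hivep3-/- mice, and the other 8 libraries lay between -3.12 and -0.94. Gm9946 and Gm43446, the latter 78.6 kb from the LIM-domain gene Lmo4, had C57BL/6 iNKT17 values of 3.50 and 3.32, and of 4.89 and 4.50. AC132357.1, antisense to Kctd16 and in its intron, had 5.19 and 4.67 in C57BL/6 and 4.65 and 4.48 in Hivep3-/- iNKT17 libraries. All 6 leading iNKT17 starts were called specific in both genotypes, and none of them was called between genotypes in iNKT17 cells, where their changes ran from -0.57 to 0.00.

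**Figure D2:**
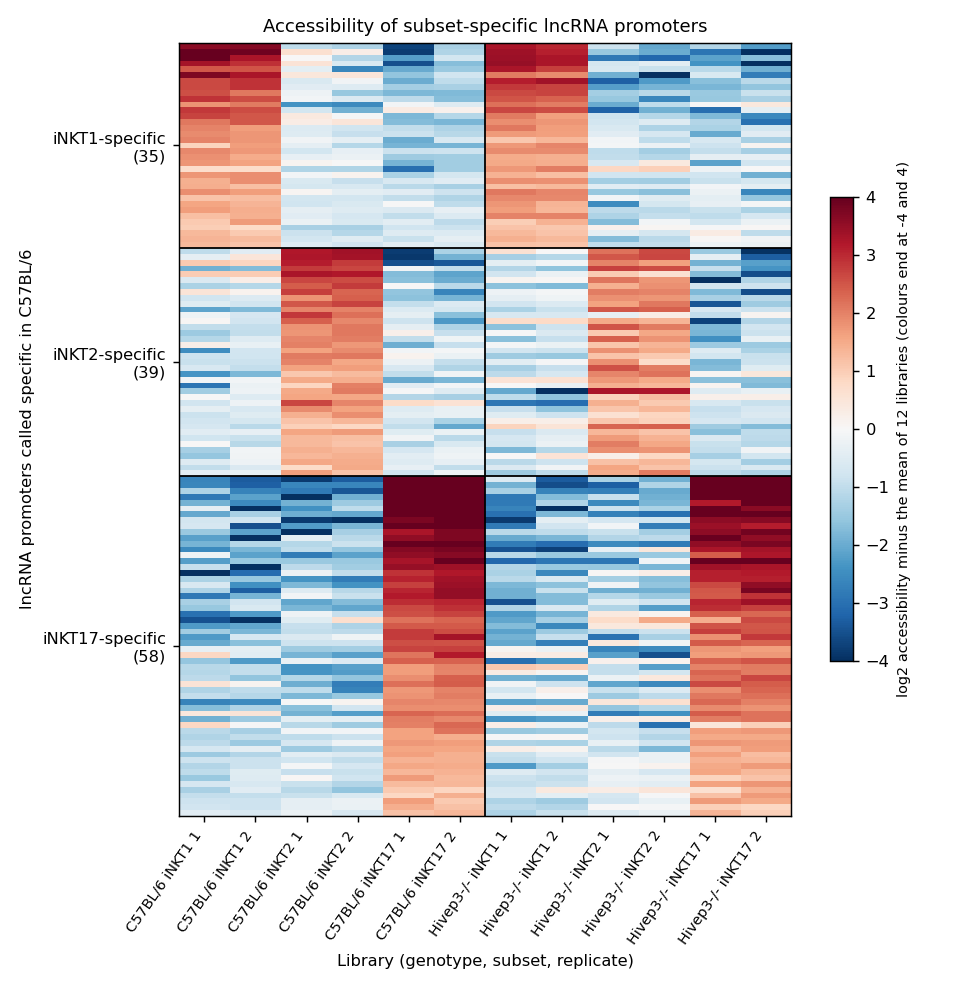
Accessibility at the 132 lncRNA promoters specific to 1 subset in C57BL/6 cells (rows, with their number in each set) in the 12 libraries (columns), as log2 value minus the mean of the 12 libraries of that row. The block that is red in each C57BL/6 subset on the left is red in the same subset of Hivep3-/- mice on the right, palest for iNKT2 cells.

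The Hivep3-/- libraries helped to define the regions, since the peaks of all libraries were merged. In the calls they entered the choice of these 132 promoters only through the estimate of spread that all groups share. Of the 35 iNKT1 promoters 28 were called specific to iNKT1 in Hivep3-/- cells as well, of the 39 iNKT2 promoters 27 were, and of the 58 iNKT17 promoters 45 were. These are 80.0%, 69.2% and 77.6% of the C57BL/6 lists, and 28 of 45, 27 of 45 and 45 of 54 promoters of the Hivep3-/- lists, which held 3.67%, 3.67% and 4.4% of those tested (all regions 5.44%, 3.4% and 5.59%). The order of the libraries was kept more often than the call. Both Hivep3-/- libraries of the subset lay above the other 4 at 35 of 35 iNKT1, 37 of 39 iNKT2 and 57 of 58 iNKT17 promoters. That order was found at 24.9%, 23.9% and 18.6% of all regions accessible in Hivep3-/- cells, and at 99.6%, 89.3% and 98.6% of all regions specific to the same subset in C57BL/6.

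The iNKT2 promoters were the set with the lower values in Hivep3-/- cells of their own subset. The median log2 change was -0.41 at the 39 iNKT2 promoters in iNKT2 cells, 0.00 at the 35 iNKT1 promoters in iNKT1 cells and -0.05 at the 58 iNKT17 promoters in iNKT17 cells, beside 0.00, -0.02 and -0.01 over all regions tested in these subsets. The C57BL/6 values chose the promoters and are also the control of these changes, so the medians are a description. Medians over all regions specific to each subset were not computed. The order of the libraries was kept least often for iNKT2 there too (89.3%, against 99.6% for iNKT1 and 98.6% for iNKT17). The lower iNKT2 values therefore cannot be called particular to lncRNA promoters.

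Genotype was compared next, within each subset. Few lncRNA promoters were called: 5 of 1093 tested in iNKT1 cells (0.457%, all regions 1.15%), 8 of 1128 in iNKT2 cells (0.709%, all regions 1.68%) and 1 of 1097 in iNKT17 cells (0.0912%, all regions 0.271%). Protein-coding promoters were called at 0.243% and 0.333% in iNKT1 and iNKT2 cells, and other autosomal regions at 1.71% and 2.46%. Without the 3-fold limit, an adjusted p under 0.1 was reached at 91 lncRNA promoters in iNKT1 (8.33%, all regions 9.42%), 176 in iNKT2 (15.6%, all regions 16.4%) and 54 in iNKT17 cells (4.92%, all regions 4.65%), so at any fold their shares were close to the background. The median log2 change over those tested was -0.05, 0.00 and -0.03, and that over all regions -0.02, 0.00 and -0.01.

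**Figure D3:**
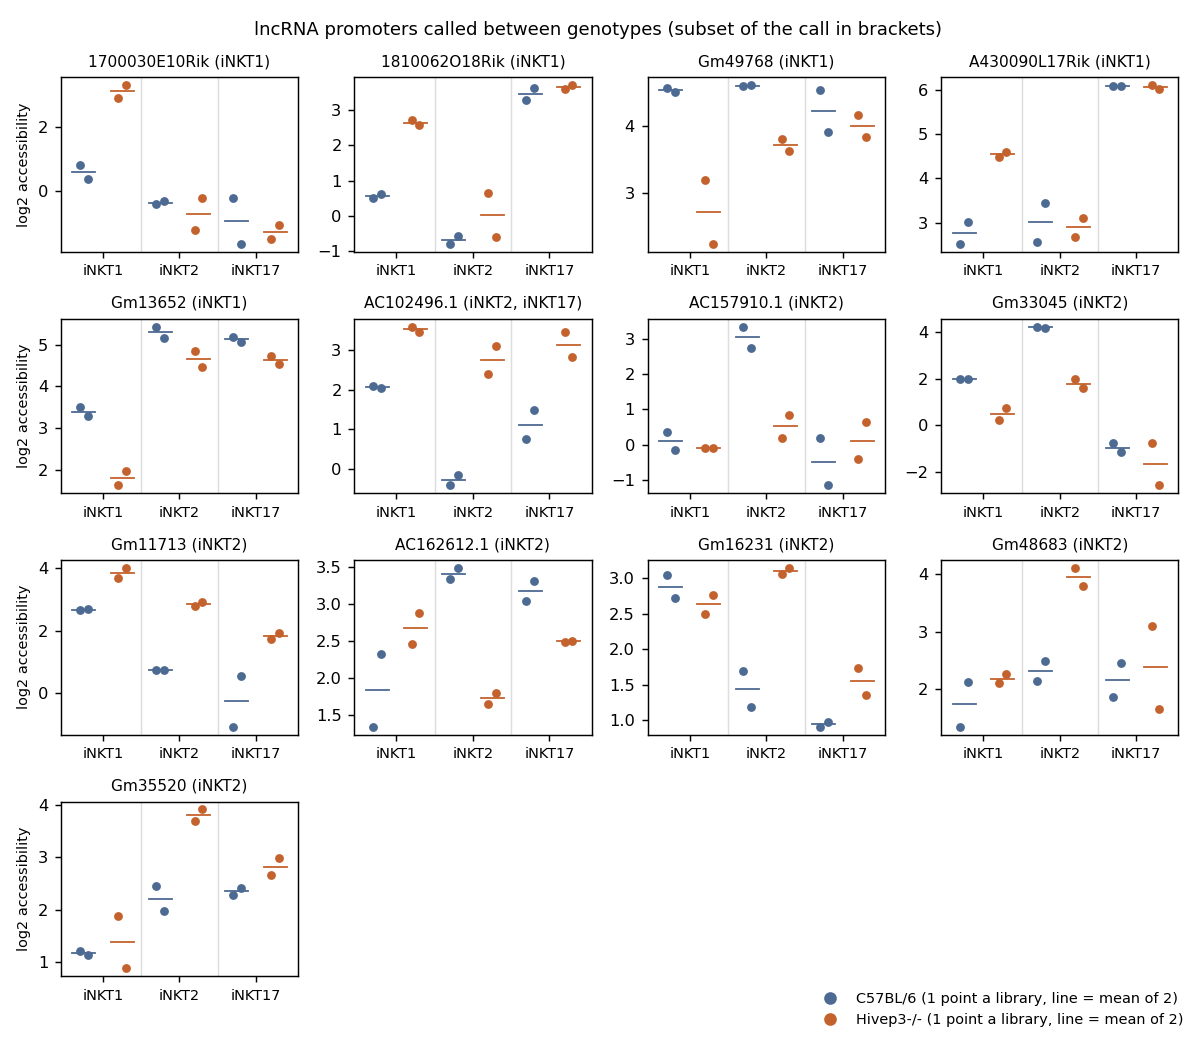
log2 normalized insertions per kilobase at the 13 lncRNA promoters called between genotypes, 1 panel each with its own vertical axis; points are single libraries, lines are means of 2, and the subset of the call is in brackets. The regions were chosen by calls on these same libraries, so the gap between genotypes in the subset of each call is no further support. AC102496.1 is higher in Hivep3-/- libraries of all 3 subsets.

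Of the 5 calls in iNKT1 cells, 3 were higher in Hivep3-/- mice (all regions 0.89%) and 2 were lower (all regions 0.264%). 1700030E10Rik was at 0.81 and 0.36 in C57BL/6 and at 2.91 and 3.31 in Hivep3-/- iNKT1 libraries, a change of 2.52 ± 0.62 (SE, adjusted p = 0.0283). In iNKT2 and iNKT17 libraries of both genotypes it lay between -1.65 and -0.21, so that in Hivep3-/- mice it was specific to iNKT1. Its call was lost on leaving out any 1 of the 4 iNKT1 libraries.

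The other rises were at starts that were iNKT17-specific in C57BL/6 mice. 1810062O18Rik, in an intron of Usp54 and on the other strand, rose from 0.51 and 0.63 to 2.70 and 2.57 in iNKT1 libraries (2.07 ± 0.39, adjusted p = 0.00679). Its iNKT17 libraries were at 3.29 to 3.70 in both genotypes, above the Hivep3-/- iNKT1 values. A430090L17Rik, in an intron of Arl15 and on the other strand, rose from 2.52 and 3.02 to 4.48 and 4.61 (1.78 ± 0.25, adjusted p = 0.00115). In iNKT17 libraries it was at 6.02 to 6.12 and in iNKT2 libraries at 2.56 to 3.45, with no change between genotypes that passed the test in either (-0.03 and -0.12). Its call was lost without replicate 1 of the C57BL/6 iNKT1 libraries.

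Both falls in iNKT1 cells were at lincRNA starts. Gm49768, 23.9 kb from the glycoprotein folding gene Uggt2, was at 4.56 and 4.51 in C57BL/6 and at 3.20 and 2.25 in Hivep3-/- iNKT1 libraries (-1.81 ± 0.27, adjusted p = 0.00168). Its iNKT2 libraries also stood lower in Hivep3-/- mice, at 3.80 and 3.63 against 4.59 and 4.61, which is under 3-fold (adjusted p = 0.0583), and the iNKT1 call was lost without replicate 2 of the Hivep3-/- libraries. Gm13652, whose region is also within 1 kb of a start of 2600014E21Rik, was at 3.51 and 3.28 against 1.63 and 1.98 (-1.59 ± 0.19, adjusted p = 0.000348), a call lost without replicate 1 of either genotype. iNKT1 cells had the lowest Gm13652 values in both genotypes, since iNKT2 and iNKT17 libraries lay between 4.47 and 5.44. The adjoining region of Gm13652 was at 1.67 and 2.07 in C57BL/6 and at -1.35 and 0.24 in Hivep3-/- iNKT1 libraries, but was below the accessibility limit in iNKT1 cells and was not tested there.

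In iNKT2 cells 5 lncRNA promoters rose (all regions 0.474%) and 3 fell (all regions 1.2%). The largest rise was at AC102496.1, a lincRNA start on chromosome 18, 4.54 kb from Pik3c3, which encodes the class III phosphatidylinositol 3-kinase Vps34. C57BL/6 libraries were at 2.08 and 2.03 in iNKT1, -0.41 and -0.16 in iNKT2, and 0.75 and 1.48 in iNKT17 cells, and Hivep3-/- libraries at 3.59 and 3.45, 2.39 and 3.10, and 3.44 and 2.83. Every Hivep3-/- library thus lay above every C57BL/6 library of all 3 subsets, but the region was chosen by its call. How many of all regions separate like this was not counted. The change was 3.03 ± 0.35 in iNKT2 (adjusted p = 0.000274). The lone call in iNKT17 cells was a rise at the same region (all regions 0.133%), of 2.02 ± 0.35 (adjusted p = 0.012). In iNKT1 cells it was 1.46 ± 0.35 (adjusted p = 0.0241), under 3-fold. The iNKT17 call was lost without replicate 1 of the C57BL/6 iNKT17 libraries.

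Gm11713, antisense to Pitpnc1 and in its intron, was likewise higher in Hivep3-/- libraries of each subset. It was at 0.75 and 0.76 in C57BL/6 and at 2.79 and 2.92 in Hivep3-/- iNKT2 libraries (2.10 ± 0.42, adjusted p = 0.00639). It had been specific to iNKT1 in C57BL/6 mice, at 2.67 and 2.69, and was at 3.69 and 4.01 in Hivep3-/- iNKT1 libraries, which did not pass the test (1.17, adjusted p = 0.13).

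Gm16231 lies in introns of Pigk and St6galnac5, which overlap on opposite strands. It was at 1.69 and 1.18 in C57BL/6 and 3.05 and 3.14 in Hivep3-/- iNKT2 libraries (1.66 ± 0.29, adjusted p = 0.00325), and at 2.50 to 3.04 in iNKT1 libraries of both genotypes. Gm48683, antisense to Ppp6r3 and in its intron, was at 2.15 and 2.49 against 4.11 and 3.80 (1.63 ± 0.42, adjusted p = 0.0243). Gm35520, a lincRNA start 60.9 kb from Lonrf1, was at 2.45 and 1.97 against 3.70 and 3.92 (1.60 ± 0.33, adjusted p = 0.00802). The last 3 calls were close to the 3-fold limit, and each was lost on leaving out 1 or more of the 4 iNKT2 libraries.

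The falls were at Gm33045, AC157910.1 and AC162612.1, and the first 2 were iNKT2-specific in C57BL/6 mice. Gm33045, the lincRNA start whose window is shown above, was at 4.24 and 4.17 in C57BL/6 and at 1.98 and 1.59 in Hivep3-/- iNKT2 libraries (-2.42 ± 0.53, adjusted p = 0.0109). In iNKT1 libraries it was at 2.00 and 2.00 against 0.20 and 0.74, below the accessibility limit and not tested. AC157910.1, in Alpk2, was at 3.35 and 2.75 against 0.20 and 0.84 (-2.53 ± 0.57, adjusted p = 0.0134), a call that was lost without replicate 1 of the C57BL/6 iNKT2 libraries. AC162612.1, a lincRNA start 151.0 kb from Tmc1, was at 3.33 and 3.48 against 1.66 and 1.80 (-1.67 ± 0.31, adjusted p = 0.00414) and was called between no subsets.

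The nearest protein-coding promoters were read beside these starts. The starts were chosen for large differences and the neighbours were not, so smaller differences at the neighbours follow from the choice. Neighbours were taken at any distance, and some, such as Ado, Plk2, Ndufs4 and Mtx2, lay over 100 kb from the start. For the genotype calls, the promoter regions of Ado, Ppp3cb, Uggt2, Ndufs4, Mtx2, Pik3c3, Plk2, Pitpnc1, St6galnac5, Ppp6r3 and Lonrf1 changed by -0.39 to 0.35 on the log2 scale in the subset of the call, and none was called, with Plk2 past the adjusted p (-0.39, adjusted p = 0.029). Alpk2 and Tmc1 had no promoter region in the table. Few of all protein-coding promoters were called between genotypes, at the shares given above, so these few neighbours cannot show a lower share. For the specific starts, 1 neighbour was called in the same comparison: the promoter of Zc3h12c, which encodes an RNA-degrading regulator of inflammation, was lower in C57BL/6 iNKT1 than in iNKT2 cells by -3.68 (adjusted p = 0.00259), as was Gm47957. That promoter is itself faint, at 2.20 and 2.66 in C57BL/6 iNKT2 libraries and at -3.12 and 0.63 in iNKT1 libraries, the first of which is the lowest value of its library. Below 3-fold, other neighbours passed the adjusted p in the direction of their start. For iNKT1 minus iNKT2 these were Elfn1 (-1.14), Ephb3 (-0.81) and Rras2 (0.60). Against iNKT17 they were Rras2 (0.37), Lyzl4 (0.35), Ice1 (-0.35) and Tnfaip3 (-0.2). Zfp637 passed in the opposite direction (0.39, adjusted p = 0.023). Among all protein-coding promoters, 32.1% to 37.3% had an unadjusted p under 0.05 by limma in these comparisons. That rule counts either direction and differs from the adjusted p used for the neighbours, so it is a rough background only. The share of protein-coding promoters called between C57BL/6 subsets is given above.

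Members at the starts of known lncRNAs were then read from 4 lists. The lists of general and architectural lncRNAs, small nucleolar RNA hosts, microRNA hosts and immune lncRNAs named 24, 21, 15 and 21 genes, of which 11, 4, 4 and 8 had regions, 24, 8, 6 and 17 in number (2 regions of Mir142hg are in 2 lists). None of these regions was called between genotypes in any subset, with median changes from -0.14 to 0.16 log2 per list and subset. Of all regions tested 1.15%, 1.68% and 0.271% were called in iNKT1, iNKT2 and iNKT17 cells, so lists of this size cannot show a lower share. An adjusted p under 0.1, at less than 3-fold, was reached in iNKT2 cells at 4 of 24 general, 1 of 6 microRNA host and 2 of 16 immune regions tested, where 16.4% of all regions had such a p at any fold. In iNKT17 cells it was reached at 3 of 22 general and 3 of 15 immune regions (all regions 4.65%), and in iNKT1 cells at 1 of 21 general, 1 of 6 microRNA host and 1 of 17 immune regions (all regions 9.42%). No small nucleolar RNA host region reached it in any subset. Between C57BL/6 subsets 5 of the 24 general and 5 of the 17 immune regions were called in at least 1 pair, against 29.7% of all regions, and no region of the host gene lists was.

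Gm14005, known as Morrbid, is a lincRNA that restrains its neighbour Bcl2l11, a proapoptotic gene, and so lengthens the life of short-lived myeloid cells. It had 5 regions, and 2 of them, side by side at the outermost start, were specific to iNKT1 in both genotypes. The first stood at 5.27 and 5.35 in C57BL/6 iNKT1, 3.38 and 3.65 in iNKT2, and 2.23 and 2.78 in iNKT17 libraries. Its Hivep3-/- values were 4.89 and 4.71, 2.72 and 2.70, and 2.70 and 1.57, in the same order, with no change between genotypes past the test. The other 3 regions of Gm14005, at a start inside the gene, lay between 4.74 and 5.90 in all 12 libraries and were called in no comparison, so that the starts of 1 gene differed in subset preference.

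Trp53cor1, the p53-induced lincRNA-p21 next to Cdkn1a, had 1 of 2 regions specific to iNKT17 in both genotypes. It read 4.68 and 5.24 in C57BL/6 iNKT17 libraries, 2.94 and 2.94 in iNKT2 and 2.00 and 1.74 in iNKT1, and 4.73 and 4.81 in Hivep3-/- iNKT17 libraries. Nespas, an imprinted antisense RNA of the Gnas cluster, was most open in iNKT2 cells, at 5.14 and 4.86 in C57BL/6 and 4.29 and 4.08 in Hivep3-/- libraries (-0.81, adjusted p = 0.0153, under 3-fold). Its difference of 2.20 to iNKT17 cells was a call, and that of 1.56 to iNKT1 cells fell just short of 3-fold.

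Gm19585 and Gm2682 differed between subsets in other ways. The second region of Gm19585 was specific to iNKT1 in C57BL/6 mice, at 4.91 and 4.72 against 2.63 and 2.64 in iNKT2 and 3.15 and 3.08 in iNKT17 libraries. In Hivep3-/- mice it was at 4.09 and 4.01 in iNKT2 and 3.90 and 3.97 in iNKT17 libraries, which is higher by 1.41 (adjusted p = 0.00017) and 0.82 (adjusted p = 0.0165), and its preference was no longer called. Gm2682 was closed in iNKT17 cells only, at 2.03 and 2.09 in C57BL/6 and 2.70 and 1.66 in Hivep3-/- libraries, with the 8 others between 4.88 and 5.84.

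Some known starts were level. The most open of the 7 regions of Lncpint, a p53-regulated lincRNA, was at 7.35 to 7.50 and the upper region of Kcnq1ot1, the imprinted antisense RNA of Kcnq1, at 6.36 to 6.61 in all 12 libraries. The other regions of Lncpint were not all level. A pair of fainter ones, near the 3′ end of the gene, were more open in iNKT2 than in iNKT17 cells of C57BL/6 mice, by 2.56 ± 0.37 (SE; adjusted p = 6.94e-05) and 2.21 ± 0.25 (adjusted p = 9.08e-06). The second of these was at 1.03 and 1.54 in C57BL/6 and 2.39 and 2.75 in Hivep3-/- iNKT17 libraries, a change of 1.29 ± 0.25 (adjusted p = 0.0201) and so under 3-fold. Mir155hg, the host of miR-155, an NF-κB target in activated lymphocytes, showed the same direction in all subsets. Its second region was at 2.83 and 2.88 in C57BL/6 and 3.59 and 3.92 in Hivep3-/- iNKT1 libraries, 3.19 and 2.95 against 3.61 and 3.97 in iNKT2, and 2.83 and 3.25 against 3.66 and 3.82 in iNKT17. All 6 Hivep3-/- libraries lay above all 6 C57BL/6 libraries, with changes of 0.90 (adjusted p = 0.0256), 0.72 (adjusted p = 0.0513) and 0.70 (adjusted p = 0.12), all under 3-fold. The share of all regions with such a separation was not counted, and this region was picked from the lists after its values were seen. Malat1, an abundant nuclear RNA, had 1 region lower in Hivep3-/- iNKT17 libraries, at 3.64 and 2.87 against 4.59 and 4.22 (-1.15, adjusted p = 0.0378), whereas its 2 other regions changed by -0.23 each there.

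**Figure D4:**
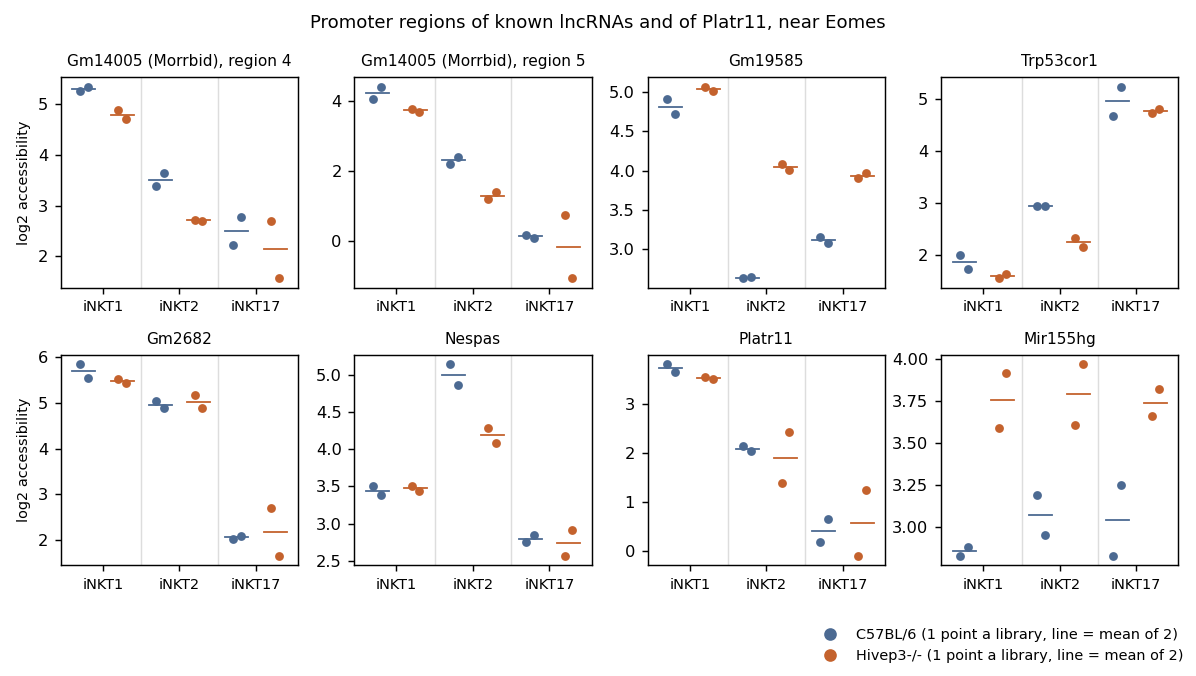
log2 normalized insertions per kilobase at 8 lncRNA promoter regions in 6 groups of 2 libraries; points are libraries, lines are means, and vertical axes differ between panels. Both Gm14005 regions and Platr11 fall from iNKT1 to iNKT2 to iNKT17, Trp53cor1 is highest in iNKT17, and the Mir155hg region is higher in Hivep3-/- libraries of every subset.

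Near protein-coding genes of iNKT biology, 29 lncRNA promoters had their nearest coding start within 100 kb at 16 of 93 listed genes. None was called between genotypes, and the median change was 0.01, -0.06 and 0.10 in iNKT1, iNKT2 and iNKT17 cells. Of all regions tested 1.15%, 1.68% and 0.271% were called there, so 29 regions are too few to show a lower share. Specific to a subset was 1, Platr11, for iNKT1, where all regions were specific to iNKT1, iNKT2 and iNKT17 at 4.66%, 3.4% and 6.14%. Platr11, 72.7 kb from Eomes, a T-box factor of cytotoxic lymphocytes, was at 3.80 and 3.65 in C57BL/6 iNKT1, 2.13 and 2.03 in iNKT2, and 0.18 and 0.64 in iNKT17 libraries. Hivep3-/- libraries read 3.55 and 3.49, 1.38 and 2.41, and -0.10 and 1.23, and the call was made there too. Gm27240, antisense to the lymphoid factor gene Ets1 and 14.2 kb from its start, was lowest in iNKT2 cells, at 4.75 and 4.53 against 6.41 and 6.18 in iNKT1 libraries of C57BL/6 mice (a difference of 1.65). Its change between genotypes in iNKT2 cells was -0.63 ± 0.16 (SE, adjusted p = 0.0219 by limma), a fall under 3-fold. Gm37469 was chosen after its values were seen. It lies in an intron of Cd247, the ζ chain of the CD3 complex, 9.09 kb from the start. It was higher in Hivep3-/- iNKT1 libraries, at 5.73 and 5.76 against 5.02 and 5.07 (0.70, adjusted p = 0.00772), under 3-fold. The rise was not limited to this subset. Its size in iNKT2 was 0.51 (adjusted p = 0.0289 by limma). A change of 0.27 in iNKT17 had the same direction but did not pass the test.

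Sequence set lncRNA promoters apart from protein-coding ones. A region of 500 bp held a median of 10 CpG dinucleotides and 51.0% GC at lncRNA promoters, 30 CpG and 59.4% GC at protein-coding promoters, and 6 CpG and 47.8% GC at other autosomal regions. Subset calls in C57BL/6 cells were made at 42.1% of lncRNA promoters with 0 to 4 CpG (72 of 171), 35.9% of those with 5 to 9 (142 of 396) and 13.1% of those with 10 or more (87 of 663). The median mean was 12.3, 13.6 and 21.7 insertions per kilobase in these classes, so openness moved with CpG number, and the part of openness in the calls was not tested.

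Motifs were searched as exact letters on both strands of each 500 bp region, and no motif pattern contained another. TNGGTCA (ROR) was present in 30 of the 58 iNKT17-specific promoters, or 51.7%, in 25.7% of the iNKT1 and 17.9% of the iNKT2 promoters, in 20.5% of all lncRNA promoters and in 18.6% of all regions. Of all iNKT17-specific regions 45.6% held it, so the share was like that of the preference as a whole. AACCACA (Runt) was in 31.0% of the iNKT17, 14.3% of the iNKT1 and 7.69% of the iNKT2 promoters, against 15.8% of all lncRNA promoters and 17.4% of all regions. Among all regions specific to iNKT17 the Runt motif was in 920 of 3831, against 27.5% of those specific to iNKT1 and 19.8% of those specific to iNKT2. The NF-κB motif was in 8 of 58 iNKT17 promoters, or 13.8%, in 2.86% of the iNKT1 and 5.13% of the iNKT2 promoters, against 4.82% of lncRNA promoters, 3.78% of all regions and 4.2% of all iNKT17-specific regions. AGGTGTGA (T-box) was in 4 of the 35 iNKT1-specific promoters, or 11.4%, against 3.13% of lncRNA promoters and 2.91% of all regions. Of all iNKT1-specific regions 11.0% held it, a share like that of the promoters. TGANTCA (AP-1) was in 28.6% of the iNKT1 and 23.1% of the iNKT2 set and in 11 of the 58 iNKT17 promoters, against 16.3% of lncRNA promoters and 15.9% of all regions. TCAAAGG (TCF) was in 17.1%, 12.8% and 12.1% of these sets, against 9.24% and 9.55%. Among all regions specific to iNKT1, iNKT2 and iNKT17, AP-1 was in 19.7%, 20.6% and 22.3%, and TCF in 9.35%, 18.5% and 11.1%. CCGGAAGT (ETS) was in 2.81% of lncRNA promoters, as of all regions, and in 6.09% of protein-coding promoters. A match names letters only and not a bound factor.

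**Figure D5:**
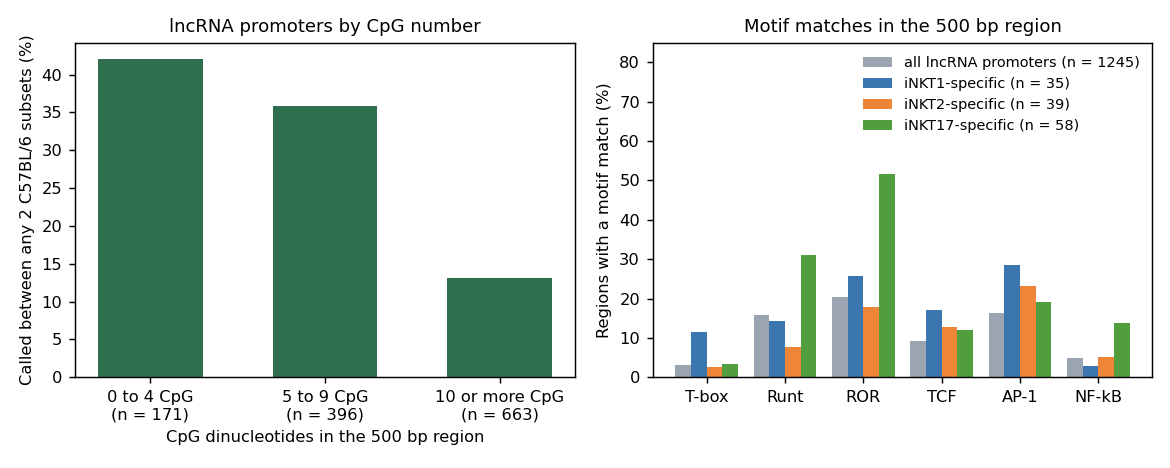
Left, share of lncRNA promoters called between any pair of C57BL/6 subsets by the number of CpG in the region; right, share of regions with a match to 6 motifs in all lncRNA promoters and in those specific to each subset. Calls fall from 42.1% to 13.1% as CpG rise, and the ROR motif is in 51.7% of iNKT17-specific promoters against 20.5% of all.

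Last, the change between genotypes was compared between subsets by interaction terms. It differed at 15 of 1197 lncRNA promoters between iNKT1 and iNKT2 cells (1.25%, all regions 3.06%), at 8 of 1191 between iNKT1 and iNKT17 cells (0.672%, all regions 1.42%) and at 5 of 1206 between iNKT2 and iNKT17 cells (0.415%, all regions 1.02%). Of the 13 regions called between genotypes, 6 were among them: 1700030E10Rik, A430090L17Rik, Gm16231 and AC162612.1 for iNKT1 against iNKT2, A430090L17Rik and Gm49768 for iNKT1 against iNKT17, and AC157910.1 for iNKT2 against iNKT17. The adjoining region of Gm13652 was among those for iNKT1 against iNKT17. With the replicate number as a block, 20, 13 and 7 were called.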

How the data were processed

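Omni-ATAC-seq was done on 12 libraries, 2 for each of 6 groups. The authors trimmed reads to 50 bp with Trimmomatic (0.39 in the submitters' processing notes), mapped them to mm10 with the ENCODE pipeline, merged the peaks of all libraries into regions of 500 bp and counted insertions in them. The deposited log2 values were normalized by the authors with voom and expressed per kilobase, so depth is unknown and no counting interval is given. Sums of the linear values ran from 1915051 to 1919036 per library, and the lowest log2 value of a library from -4.31 to -2.58. No column was left unmapped (0).

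All regions were fitted together in limma 3.58.1 (R 4.3.3) with 6 groups and a mean-variance trend (6 residual and 7.17 prior degrees of freedom). A region was tested where either group compared had a linear mean of at least 5, p-values were adjusted by Benjamini-Hochberg over all regions tested, and a call needed a 3-fold change or more beside an adjusted p under 0.1. Interactions were tested in the same fit. The fit was tested on simulated data.

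The regions named are those called between genotypes, the 6 in each subset whose smaller difference to the other C57BL/6 subsets was largest, regions of the listed known lncRNAs, examples of those called near listed iNKT genes, the nearest protein-coding promoters of the first 2 sets and the 5 most open regions, besides those called by interaction. The promoters and the lists were chosen with earlier results of these data known. Titles number the mice within a genotype, and deviations of libraries of the same number correlated by 0.12 to 0.167 within genotype. Between genotypes, where the same number is not the same mouse, they correlated by 0.0911 to 0.174 (0.171, 0.145 and 0.113 in the same subset). The correlations therefore cannot show whether the subsets are paired by this number. The main fit used no block for it. The promoter of another iNKT17 marker gene is not reported here. Start sites came from the GENCODE vM21 annotation and sequences from the mm10 genome. Python 3.11.15, numpy 2.4.6, pandas 2.3.3 and matplotlib 3.10.9 were used. Alternatives were a 2-fold limit, no accessibility filter, pseudocounts of 1 and 5, only the groups compared, replicate blocks and leaving out each library.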

Additional observations from a re-analysis of the deposited data

Results flagged for a closer look

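At the regions below the change between genotypes (Hivep3-/- minus C57BL/6, log2) differed between a pair of subsets by 3-fold or more, with an adjusted p under 0.1 in limma's interaction test. Each value is the change in the first subset minus that in the second. Some of the single changes were below the accessibility limit of their own comparison and were not tested there.

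Between iNKT1 and iNKT2 cells there were 15. At Gm26979 the difference was -1.68, from -1.08 and 0.60 in these subsets (adjusted p = 0.0514). For 5031425F14Rik it was 2.87 (changes 0.49 and -2.38, adjusted p = 0.0111). 0610031O16Rik gave -1.76 (changes -1.37 and 0.39, adjusted p = 0.00947). For Gm16231 it was -1.91 (changes -0.25 and 1.66, adjusted p = 0.0158). Gm43791 gave 1.90 (changes 1.25 and -0.65, adjusted p = 0.0142). For Gm10390 it was 2.51 (changes 1.21 and -1.29, adjusted p = 0.0969). Gm16794 gave 1.71 (changes 0.40 and -1.31, adjusted p = 0.0143). For 1700030E10Rik it was 2.88 (changes 2.52 and -0.35, adjusted p = 0.0724).

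Gm11750 gave -4.20 (changes -2.76 and 1.44, adjusted p = 0.0286). For Gm32369 it was 1.59 (changes 0.27 and -1.33, adjusted p = 0.0128). A430090L17Rik gave 1.90 (changes 1.78 and -0.12, adjusted p = 0.00855). For Gm30564 it was 2.89 (changes 1.75 and -1.14, adjusted p = 0.0825). Gm16146 gave -2.10 (changes -0.65 and 1.45, adjusted p = 0.0162). For AC147229.1 it was 1.98 (changes 1.12 and -0.85, adjusted p = 0.0832). AC162612.1 gave 2.50 (changes 0.83 and -1.67, adjusted p = 0.00549).

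Between iNKT1 and iNKT17 cells there were 8. At 1810006J02Rik the difference was -2.14, from 0.26 and 2.39 in these subsets (adjusted p = 0.077). For Gm13523 it was 1.76 (changes 1.16 and -0.60, adjusted p = 0.0109). The region of Gm13652 next to the one called between genotypes gave -2.24 (changes -2.43 and -0.19, adjusted p = 0.0703). For Gm28196 it was -2.54 (changes -1.08 and 1.47, adjusted p = 0.00515). Gm43791 gave 1.76 (changes 1.25 and -0.52, adjusted p = 0.0435). For Lncpint it was -1.64 (changes -0.35 and 1.29, adjusted p = 0.035). A430090L17Rik gave 1.80 (changes 1.78 and -0.03, adjusted p = 0.0237). For Gm49768 it was -1.59 (changes -1.81 and -0.22, adjusted p = 0.0591).

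Between iNKT2 and iNKT17 cells there were 5. At Gm13185 the difference was -1.83, from -0.77 and 1.06 in these subsets (adjusted p = 0.00663). For Gm28196 it was -1.96 (changes -0.49 and 1.47, adjusted p = 0.0248). Gm16237 gave -1.93 (changes -1.18 and 0.75, adjusted p = 0.0708). For A930002C04Rik it was -2.59 (changes -1.17 and 1.43, adjusted p = 0.0314). AC157910.1 gave -3.13 (changes -2.53 and 0.60, adjusted p = 0.0789).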

How the results depend on the processing

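Alternatives for single regions were computed for the called genotype changes, the called interactions and the leading specific starts of each C57BL/6 subset, and none of these reversed. The calls were most sensitive to the fold limit and to a pseudocount added on the linear scale, which shrinks changes at faint regions by construction. At a 2-fold limit the genotype calls were 23, 38 and 19 in iNKT1, iNKT2 and iNKT17 cells (from 5, 8 and 1). With no filter on accessibility they were 11, 15 and 5. With a pseudocount of 1 they were 3 and 4 in iNKT1 and iNKT2 cells, and with a pseudocount of 5 they were 0 in each subset by limma. By another rule, without a pseudocount and at any fold, 205, 265 and 191 had an unadjusted p under 0.05 in limma. These are 18.8%, 23.5% and 17.4% of those tested, close to the 17.8%, 25.3% and 15.8% of all regions. With only the groups compared in the fit, iNKT17 cells had 2 calls; the cause was not tested. Promoters specific to iNKT1, iNKT2 and iNKT17 in C57BL/6 numbered 74, 71 and 89 at 2-fold and 13, 8 and 31 with a pseudocount of 5. In Hivep3-/- cells those of iNKT1 and iNKT2 numbered 86 and 86 at 2-fold, and with a pseudocount of 5 the 3 sets numbered 17, 10 and 24. Interaction calls for iNKT1 against iNKT2, iNKT1 against iNKT17 and iNKT2 against iNKT17 numbered 53, 21 and 15 at 2-fold and 1, 0 and 0 with a pseudocount of 5, and the last 2 were 3 and 3 with a pseudocount of 1.

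With the replicate number as a block, within or across genotypes, the interaction calls were 20, 13 and 7, and the genotype counts stayed at 5, 8 and 1. The specific sets moved by at most 1. Leaving out each library gave genotype calls of 3 to 6 in iNKT1 (3 without Hivep3-/- iNKT1 replicate 1), 9 to 13 in iNKT2 (13 without Hivep3-/- iNKT2 replicate 1) and 0 to 3 in iNKT17 cells (0 without C57BL/6 iNKT17 replicate 1 and 3 without Hivep3-/- iNKT17 replicate 1). The sets specific to iNKT1, iNKT2 and iNKT17 held 35 to 41, 36 to 40 and 56 to 60 in C57BL/6, and 42 to 47, 41 to 50 and 51 to 56 in Hivep3-/- cells. Interaction calls ran from 10 to 22 for iNKT1 against iNKT2. For iNKT1 against iNKT17 they ran from 3 to 11, with 4 without replicate 1 of either iNKT1 group, 3 without Hivep3-/- iNKT1 replicate 2 and 5 without C57BL/6 iNKT17 replicate 1. For iNKT2 against iNKT17 they ran from 3 to 10, with 3 without either C57BL/6 iNKT2 library, and 10 and 8 without Hivep3-/- iNKT17 replicates 1 and 2. A lone library left in a group is assumed to vary like the others. Of the alternatives for single regions, 119 kept and 35 lost a genotype call, 388 and 8 a C57BL/6 subset call, and 288 and 132 an interaction call.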
